A study of Mus musculus with 6 samples.

Results

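The transcripts of 9 genes of the JAK-STAT pathway were followed in CD4 T cells that lack Foxo1 and in their controls: the STAT factors Stat2, Stat3, Stat4, Stat5a, Stat5b and Stat6 and the Janus kinases Jak1, Jak2 and Jak3. They were chosen by symbol in the deposited table of normalized signal, where all 9 were found among 13564 genes, and they were read in the count files by gene identifier among 55487 genes. Foxo1TKO mice are CD4cre Foxo1 fl/fl mice. Their Cre is already active in thymocytes that carry both coreceptors, so CD8 T cells lose Foxo1 too. Foxo1Ctrl mice are Foxo1 fl/fl mice that carry no Cre, so that Cre itself differs between the genotypes as well. Both are C57BL/6 mice with a Foxp3-GFP reporter. The labels give no age, and the study describes its Foxo1TKO mice as young adults. Naive CD4 T cells from lymph nodes of either genotype were activated for 4 days with soluble anti-CD3 at 0.1 µg/ml. The culture also held 250000 splenocytes of C57BL/6 CD3eKO mice, which have no T cells, and the total RNA of 3 Foxo1TKO and 3 Foxo1Ctrl cultures was sequenced. Neither the labels nor the methods say that the splenocytes were removed before RNA extraction, or that the replicates came from separate mice. If they did not, the p-values measure only the spread between these samples, which may be technical.

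Cytokine receptors have no kinase activity of their own. A Janus kinase bound to the inner part of a receptor chain is activated when the cytokine brings the chains together, and it phosphorylates the receptor and the STAT factors that dock there. Phosphorylated STAT factors pair, enter the nucleus and bind DNA, and in T cells the choice of STAT factor directs helper differentiation, survival and growth. The data are of transcripts only, so nothing here measures phosphorylation.

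The level of each transcript is given as counts normalized by edgeR's TMM method, and differences as log2 fold changes of Foxo1TKO against Foxo1Ctrl with their standard error (SE). The test was the quasi-likelihood test of edgeR over 13691 genes that reached 10 counts in 3 or more libraries, with Benjamini-Hochberg adjustment over all of them, and genes with an adjusted p under 0.05 are said to be called. All 9 members passed this limit on low counts. Libraries held 14783890 to 19675447 counts. The targeted gene, Foxo1, had 46.5 to 114.8 normalized counts in Foxo1TKO libraries and 1529 to 2285 in Foxo1Ctrl libraries. The summed level of 8 T-cell markers was 168744 to 187810 in Foxo1TKO and 196773 to 231151 in Foxo1Ctrl libraries. Transcripts of other cell types that the added splenocytes could hold were present. The summed level of 8 B-cell markers was 153.8 to 214.1 in Foxo1TKO and 572.9 to 646.3 in Foxo1Ctrl libraries, and 4 of the 6 tested were lower in Foxo1TKO. That of 4 plasma-cell markers was 2887 to 3772 against 4432 to 5368, of which Xbp1, a gene that many cells express, held the larger part in Foxo1TKO libraries. Of the 3 tested, Jchain (301.7 to 850.2 against 1387 to 2281 counts) and Mzb1 were lower, and Sdc1, which defines plasma cells, was at 0 to 7.15 counts. Of 5 NK-cell markers, summing to 1892 to 2372 against 3769 to 4967, Klrd1 was lower (604.2 to 978.7 against 3351 to 4659) and Eomes was higher, genes that activated T cells can express too, while Klra8 was at 0 in every library. Of 8 macrophage and monocyte markers, 2 reached the limit on low counts and neither was called, and C1qa was at 0 in every library. Of 7 dendritic-cell markers 2 reached this limit, and of 6 erythroid markers 3, and none of these was called. None of 6 neutrophil markers reached it, so that none could be called. Other white blood cells express STAT factors and Janus kinases too, and the part of their transcripts in the values of the members was not tested. In bulk RNA, fewer cells of a type and less RNA per cell cannot be told apart.

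Libraries of one genotype also differed from each other along an axis linked to base composition. The second principal component held 17.1% of the variance, and along it Foxo1TKO replicate 1 lay at the opposite end from Foxo1TKO replicate 3, and Foxo1Ctrl replicate 2 at the opposite end from the other Foxo1Ctrl replicates. The rank correlation across genes of a gene's GC content with its distance from the genotype mean was 0.38 in Foxo1TKO replicate 1, 0.34 in Foxo1Ctrl replicate 1 and 0.26 in Foxo1Ctrl replicate 3, against −0.26 in Foxo1TKO replicates 2 and 3 and −0.40 in Foxo1Ctrl replicate 2. Genes are not independent replicates, and these coefficients describe the libraries only. Several members followed this axis.

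Of the 9 members, Stat5a was called higher in Foxo1TKO cells, Stat4 was called lower, and 7 were not called. That is 2 of 9, where 24.2% of all genes tested were called (11.8% higher and 12.4% lower), so the share of members called was near that of all genes. The median log2 fold change was −0.31 over the 9 members and 0.01 over all genes tested. The libraries of the genotypes did not overlap for 4 members, Stat3 and Stat5a on the higher side and Stat4 and Jak2 on the lower side, whereas 42.7% of all genes did not overlap.

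**Figure D1:**
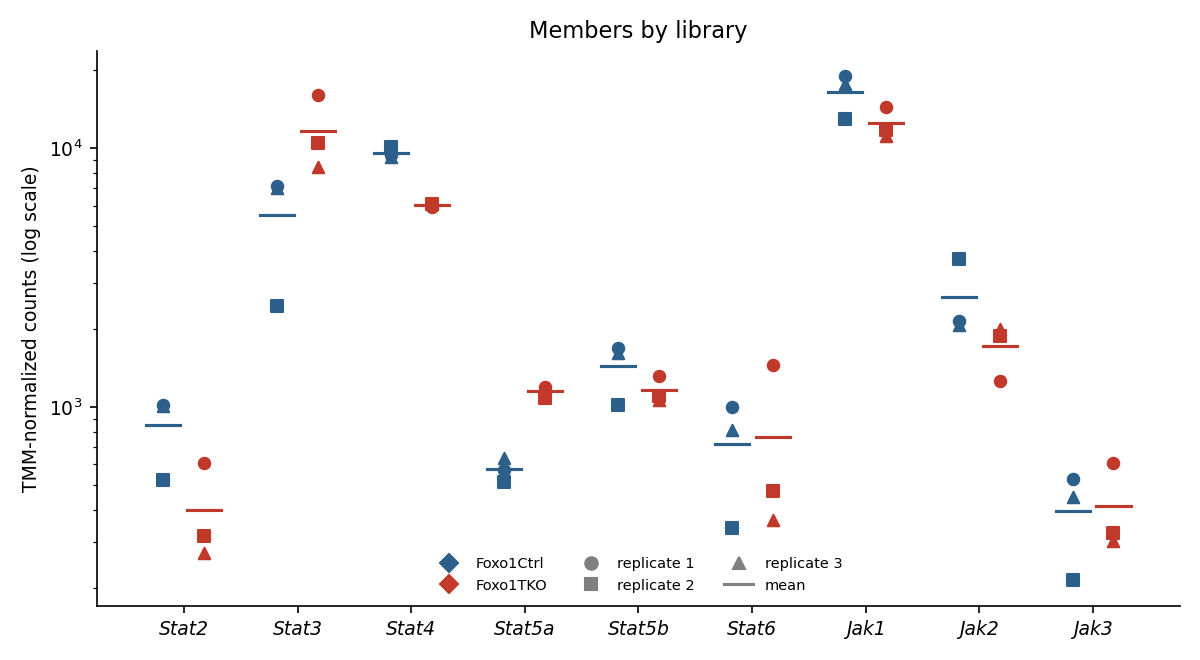
TMM-normalized counts (log scale) of the 9 members in each of the 6 libraries, with Foxo1Ctrl in blue, Foxo1TKO in red, a symbol for each replicate number and a bar at the mean. Stat4 and Stat5a form tight groups that lie apart, whereas the libraries of Stat6 and Jak3 are spread over the same range in both genotypes.

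Because Stat5a and Stat4 are the members that were called, and because a forkhead factor such as Foxo1 binds DNA at sites with the core AAACA, the stretches of their promoters that hold this core are shown first. They are RefSeq promoter windows on GRCm38.p6, each from 250 bases before to 50 bases after an annotated start, of which only bases before the start are printed, and all 9 members were matched to at least 1 window (12 windows in all). Capitals mark the core, here on the opposite strand as TGTTT. The printed stretches of Stat5a lie before its annotated starts on chromosome 11 (chr11:100859531-100859615 and chr11:100860378-100860462, plus strand). The printed stretch of Stat4 lies before its first start (chr1:51986935-51987019, plus strand).
Stat5a, first start: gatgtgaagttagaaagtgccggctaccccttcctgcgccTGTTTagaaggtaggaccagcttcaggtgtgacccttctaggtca
Stat5a, second start: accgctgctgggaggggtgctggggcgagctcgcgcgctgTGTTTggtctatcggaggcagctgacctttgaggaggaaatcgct
Stat4, first start: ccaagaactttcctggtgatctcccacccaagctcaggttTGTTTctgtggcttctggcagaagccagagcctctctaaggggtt

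The core AAACA was searched on both strands, and 50.5% of the 32851 promoter windows of the genome held it, so its presence sets no member apart. It lay in windows of Stat2, Stat4, Stat5a, Stat5b, Stat6 and Jak3 and not in those of Stat3, Jak1 and Jak2. The longer forkhead motif GTAAACA, of which the core is a part, was in none of the members' windows and in 3.65% of all windows. The GAS motif TTCNNNGAA, the palindrome at which STAT dimers bind, was in none of them either and in 8.30% of all windows. A motif of the interferon-stimulated response element, GAAANNGAAA on either strand, was in 3.44% of all windows and in those of Stat2 and of the second start of Stat4. These 2 stretches are shown with the motif in capitals (chr10:128270248-128270325 for Stat2 and chr1:52008103-52008192 for Stat4, both plus strand). In Stat2 the match is on the opposite strand.
Stat2: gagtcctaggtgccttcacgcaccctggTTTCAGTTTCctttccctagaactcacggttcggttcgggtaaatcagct
Stat4, second start: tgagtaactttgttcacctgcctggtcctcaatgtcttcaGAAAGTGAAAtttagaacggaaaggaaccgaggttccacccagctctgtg
A match describes these letters in these windows and not a site that was measured.

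Stat5a, a signal carrier of IL-2 and the other cytokines of the common gamma chain, had about 2 times the level in Foxo1TKO cells. Its normalized counts were 1199, 1081 and 1187 in Foxo1TKO replicates 1 to 3, and 571.1, 514.6 and 635.6 in Foxo1Ctrl replicates 1 to 3. The lowest Foxo1TKO library lay well above the highest Foxo1Ctrl library. The means were 1156 ± 65.1 and 573.8 ± 60.5 (SD, n = 3), a log2 fold change of 1.01 (SE 0.16, fold 2.01, edgeR, adjusted p = 0.00313). With each library left out in turn, Stat5a stayed past the threshold in 6 of 6 fits, at 0.94 to 1.08 on the log2 scale. Among all genes tested, 8.4% had a smaller spread within the genotypes than Stat5a. The gene (ENSMUSG00000004043) lies on chromosome 11 from 100859351 to 100885169 on the plus strand of GRCm38. It shares 72 exon bases with Stat3, which lies on the other strand, and no source used here says if counting took strand into account.

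Stat5b, the neighbour and close paralog of Stat5a, was not called. It had 1318, 1102 and 1065 normalized counts in Foxo1TKO libraries and 1693, 1015 and 1619 in Foxo1Ctrl libraries. Foxo1Ctrl replicate 2 was the lowest of the 6, so the genotypes overlapped. The log2 fold change was −0.31 (SE 0.22, edgeR, adjusted p = 0.346). Stat5b (ENSMUSG00000020919) lies on chromosome 11 from 100780731 to 100850724 on the minus strand, 8627 bases from Stat5a.

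The balance of the 2 paralogs was compared within each library in TPM, the share of transcripts in a library after correction for gene length. Stat5a was at 25.3, 20.0 and 21.1 TPM in Foxo1TKO libraries and Stat5b at 19.1, 14.4 and 13 TPM. In Foxo1Ctrl libraries Stat5a was at 11.2, 8.14 and 12.1 TPM and Stat5b at 23.0, 11.4 and 21.9 TPM. Stat5a was thus the more abundant of the pair in each Foxo1TKO library and Stat5b in each Foxo1Ctrl library. The log2 ratio of Stat5b to Stat5a was −0.53 ± 0.15 in Foxo1TKO and 0.79 ± 0.28 in Foxo1Ctrl libraries (SD, n = 3), a difference of −1.32. A two-sided exact permutation test gave p = 0.1, the smallest this test can give for 3 libraries against 3, so that it could not reach 0.05. The sum of both transcripts was 34.1 to 44.3 TPM in Foxo1TKO and 19.5 to 34.2 TPM in Foxo1Ctrl libraries. RSEM shares a read that maps to both paralogs between them, so each single level is uncertain to that extent.

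**Figure D2:**
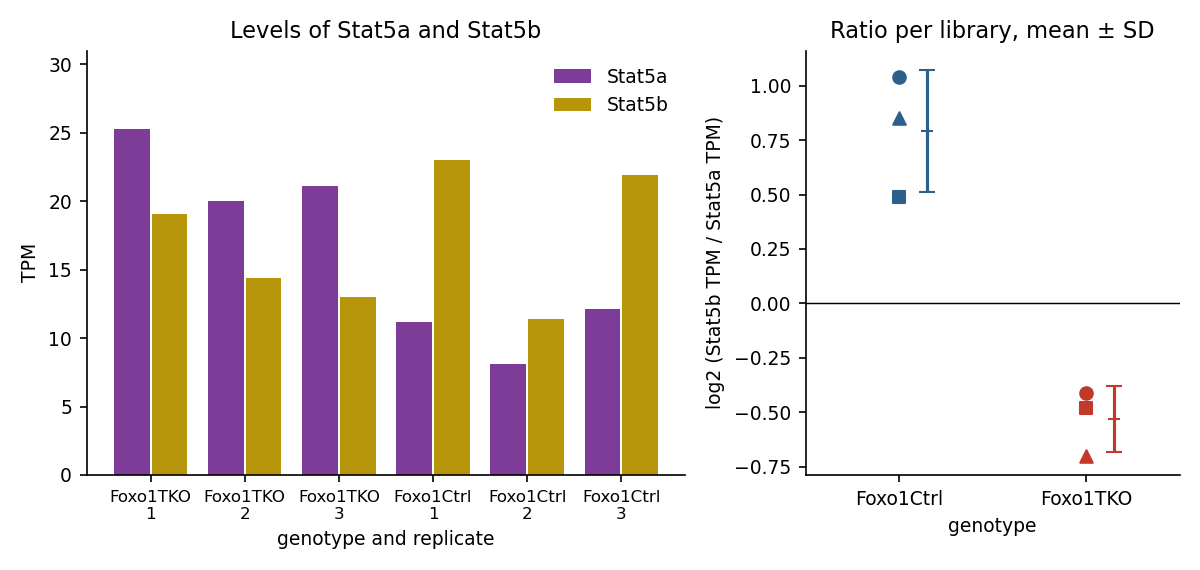
Left, TPM of Stat5a (purple) and Stat5b (yellow) in each library; right, log2 ratio of Stat5b to Stat5a per library with the mean and SD of each genotype (n = 3). The ratio lies below 0 in the 3 Foxo1TKO libraries and above 0 in the 3 Foxo1Ctrl libraries.

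The paralogs share sequence before their second annotated starts, which lie within the annotated spans of the genes. Without gaps, the most alike 60 bases before the second annotated starts of both genes were identical at 51 positions (85.0%), whereas the other pairs of starts reached 50.0% to 58.3%. These stretches (chr11:100860412-100860471, plus strand, for Stat5a and chr11:100822574-100822633, minus strand, for Stat5b) are shown with the identical bases in capitals, because they are the part of the promoters in which genes of unequal change resemble each other most.
Stat5a: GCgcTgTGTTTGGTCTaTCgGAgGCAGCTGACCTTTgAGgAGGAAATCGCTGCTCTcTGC
Stat5b: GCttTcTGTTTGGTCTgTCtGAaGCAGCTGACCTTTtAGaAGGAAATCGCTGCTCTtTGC
Both hold the forkhead core as TGTTT. Which starts were used in these cells was not measured.

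Stat4, which carries the signal of IL-12 and directs T cells toward the Th1 fate, was lower in Foxo1TKO cells. It had 5921, 6093 and 6063 normalized counts in Foxo1TKO libraries and 9444, 10141 and 9262 in Foxo1Ctrl libraries. The genotypes lay far apart in relation to their spread, which was the smallest of any member: 0.4% of all genes tested varied less within the genotypes. The means were 6026 ± 92.0 and 9616 ± 464 (SD, n = 3), a log2 fold change of −0.67 (SE 0.13, 1.60-fold lower, edgeR, adjusted p = 0.00796). With each library left out in turn, it stayed past the threshold in 5 of 6 fits. Without Foxo1TKO replicate 2 the log2 fold change was the same, −0.67, and the adjusted p was 0.0561 in edgeR's test, a fit in which 1590 genes were called in place of 3308. Stat4 (ENSMUSG00000062939) lies on chromosome 1 from 51987148 to 52107189, plus strand, and shares 1033 exon bases on the same strand with Gm28177.

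Stat3, the factor downstream of IL-6, IL-21 and IL-10, was at a higher level in each Foxo1TKO library than in any Foxo1Ctrl library, but was not called. Foxo1TKO libraries held 15980, 10431 and 8430 normalized counts and Foxo1Ctrl libraries 7144, 2464 and 6993. Foxo1Ctrl replicate 2 stood far below the other Foxo1Ctrl libraries and Foxo1TKO replicate 1 above the other Foxo1TKO libraries. The log2 fold change was 1.07 (SE 0.41, edgeR, adjusted p = 0.0992). The difference was of the size of that of Stat5a, with a larger standard error. With an offset for GC content in each library, an alternative chosen after seeing the data, it was 0.995 (adjusted p = 0.0734, edgeR), and with DESeq2 it was 1.08 and past the threshold (adjusted p = 0.0318). Stat3 (ENSMUSG00000004040) lies on chromosome 11 from 100885098 to 100939540, minus strand.

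Stat2, which joins IRF9 in the complex that answers type 1 interferons, was not called, with values mostly on the lower side in Foxo1TKO cells. Its counts were 608.5, 316.7 and 272.6 in Foxo1TKO libraries and 1017, 522.6 and 1013 in Foxo1Ctrl libraries. Foxo1TKO replicate 1 lay above Foxo1Ctrl replicate 2, which was the only overlap. The log2 fold change was −1.09 (SE 0.37, edgeR, adjusted p = 0.0689). With each library left out in turn, Stat2 was past the threshold in 2 of 6 fits. These were without Foxo1TKO replicate 1 (−1.52, adjusted p = 0.0175, edgeR) and without Foxo1Ctrl replicate 2 (−1.33, adjusted p = 0.0314, edgeR). In the former every Foxo1TKO library kept has a GC coefficient below 0, and in the latter every Foxo1Ctrl library kept has one above 0. The part of the GC axis in these values was not tested. DESeq2 gave −1.08 with an adjusted p of 0.0210. Stat2 (ENSMUSG00000040033) lies on chromosome 10 from 128270559 to 128292849, plus strand.

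Stat6, the factor of IL-4 and IL-13, varied more within the genotypes than between them. It had 1455, 475.5 and 367 normalized counts in Foxo1TKO libraries and 998, 341.9 and 815.8 in Foxo1Ctrl libraries. The highest Foxo1TKO library held 3.96 times the lowest one and the highest Foxo1Ctrl library 2.92 times the lowest. With a log2 fold change of 0.09 and a standard error of 0.56 (edgeR, adjusted p = 0.926), a change of Stat6 was not detectable at this precision. Stat6 (ENSMUSG00000002147) lies on chromosome 10 from 127642986 to 127660957, plus strand.

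None of the Janus kinases was called. Jak1, which serves the common gamma chain, gp130 and interferon receptors, was the most abundant kinase with 14467, 11756 and 11169 normalized counts in Foxo1TKO and 18996, 12912 and 17630 in Foxo1Ctrl libraries. The genotypes overlapped through Foxo1Ctrl replicate 2. The log2 fold change was −0.41 (SE 0.19, edgeR, adjusted p = 0.171). With each library left out in turn, Jak1 was past the threshold in 1 of 6 fits, without Foxo1Ctrl replicate 2 (−0.55, adjusted p = 0.0418, edgeR). In that fit every Foxo1Ctrl library kept has a GC coefficient above 0, and the part of the GC axis in this value was not tested.

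Jak2, a kinase of the IL-12 and interferon gamma receptors, had 1256, 1884 and 2009 normalized counts in Foxo1TKO libraries and 2151, 3719 and 2079 in Foxo1Ctrl libraries. The genotypes did not overlap, but the highest Foxo1TKO library was close to the lowest Foxo1Ctrl library. The log2 fold change was −0.63 (SE 0.28, edgeR, adjusted p = 0.145). Jak3, the partner of the common gamma chain, had 607.7, 326.4 and 304.8 counts against 529.4, 213.8 and 448.6. Its libraries covered the same range in both genotypes, with a log2 fold change of 0.06 (SE 0.39, edgeR, adjusted p = 0.935). Jak3 shares 404 exon bases with Insl3 on the same strand, so reads there could belong to either gene. On GRCm38, Jak1 (ENSMUSG00000028530) lies on chromosome 4 from 101152367 to 101265282, minus strand, Jak2 (ENSMUSG00000024789) on chromosome 19 from 29251828 to 29313080, plus strand, and Jak3 (ENSMUSG00000031805) on chromosome 8 from 71676296 to 71690575, plus strand.

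**Figure D3:**
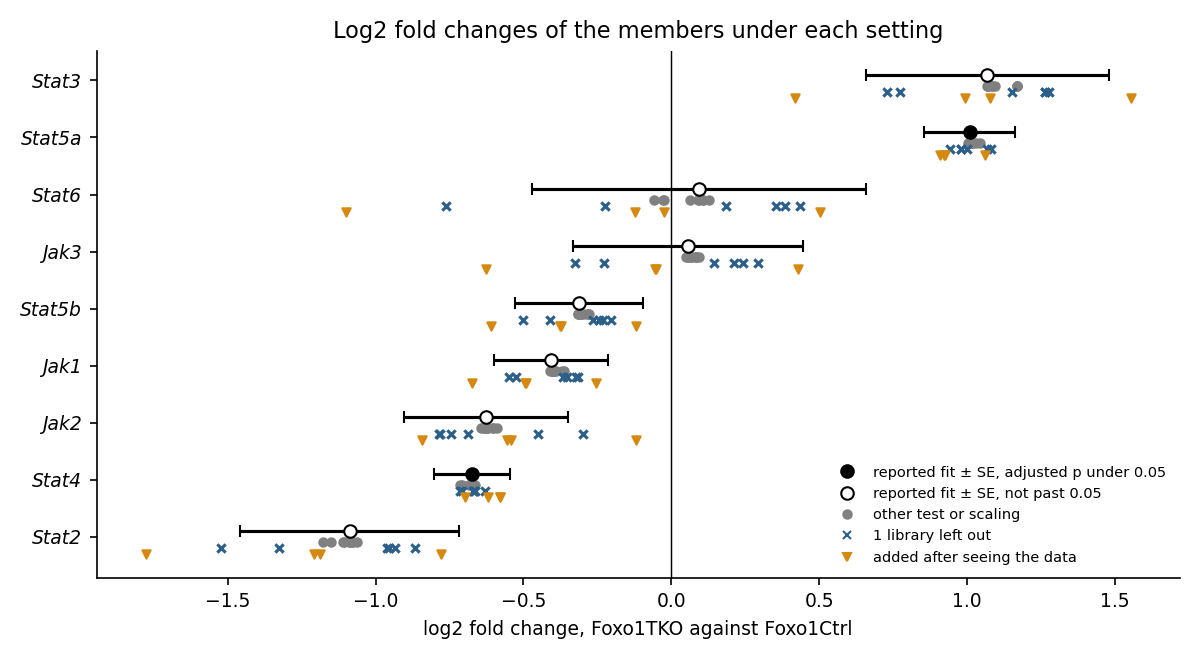
Log2 fold changes of the members, Foxo1TKO against Foxo1Ctrl, with the standard error of the reported edgeR fit (circles, filled where the adjusted p was under 0.05) and the values under the alternatives (small grey points, other tests or scalings; blue crosses, 1 library left out; orange triangles, alternatives added after seeing the data). The points of Stat5a and Stat4 stay close together, whereas those of Stat6 and Jak3 lie on both sides of 0.

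Most members shared a pattern among the libraries of one genotype. Stat2, Stat3, Stat5b, Stat6, Jak1 and Jak3 were each highest in replicate 1 and lowest in replicate 3 of Foxo1TKO, and highest in replicate 1 and lowest in replicate 2 of Foxo1Ctrl. Jak2 had the reverse in Foxo1TKO, being lowest in replicate 1, and was highest in replicate 2 of Foxo1Ctrl. The exons of Stat4 and Jak2 had the lowest GC content of the members, 42.7% and 44.5%, against 52.4% to 60.8% in the others. Stat5a, with 57.0% GC, kept within 0.15 of its genotype mean on the log2 scale in every library, whereas Stat6, with 55.7% GC, was up to 1.20 away. Members of like GC content thus differed in how far they followed the axis. The SD within the genotypes ran from 0.05 for Stat4 and 0.12 for Stat5a to 0.70 for Stat3 and 0.95 for Stat6 on the log2 scale.

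**Figure D4:**
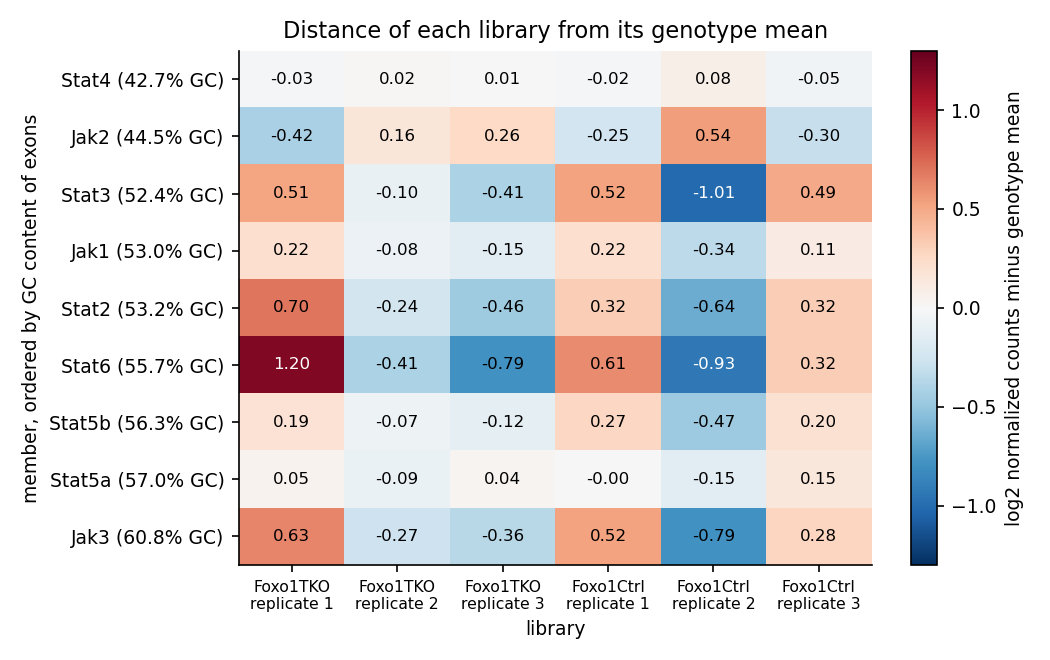
Distance of each library from the mean of its genotype, in log2 normalized counts, for the 9 members ordered by the GC content of their exons. Foxo1TKO replicate 1 and Foxo1Ctrl replicate 2 hold the extreme values, up to 1.20 in Stat6 and −1.01 in Stat3, and Stat4 and Stat5a are near 0 throughout.

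The genotypes were also compared among libraries of like sign on this axis, which puts Foxo1TKO replicate 1 beside Foxo1Ctrl replicates 1 and 3, and Foxo1TKO replicates 2 and 3 beside Foxo1Ctrl replicate 2. These sides were set from the counts themselves, and the values that follow are differences of means with no test. Each side holds only 1 library of one genotype. Libraries of like sign also lay at unlike places, such as −3.5 for Foxo1TKO replicate 2 and −53.8 for Foxo1Ctrl replicate 2 on the second principal component. The part of the axis that remains in these differences was not tested. The closing section gives a fit over all 6 libraries with the side as a term. Stat5a differed by 0.99 on the positive and 1.14 on the negative side in mean log2 normalized counts, and Stat4 by −0.66 and −0.74. Stat3 differed by 1.18 and 1.93, Stat2 by −0.74 and −0.83, and Jak2 by −0.75 and −0.93. The direction of these 5 members was the same on both sides, and so was that of Jak1 (−0.34 and −0.17). For Stat3, Stat4, Stat5a and Jak2 any split must give this, because their genotypes did not overlap. For Stat2 and Jak1 only Foxo1TKO replicate 1 and Foxo1Ctrl replicate 2 overlapped, and the split puts these on unlike sides. The like directions were therefore fixed in advance and tell nothing of the axis. Stat5b differed by −0.33 on one side and 0.09 on the other. Stat6 and Jak3 were higher in Foxo1TKO libraries on both sides, by 0.69 and 0.29 and by 0.32 and 0.56.

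The order of the members by level was set by Jak1, Stat3 and Stat4 at the top in both genotypes. In Foxo1Ctrl libraries the median level was 293.2 TPM for Jak1, 273.1 for Stat4 and 131.6 for Stat3, followed by Stat2 at 31.8, Jak2 at 30.7, Stat5b at 21.9, Stat6 at 17.4, Stat5a at 11.2 and Jak3 at 8.10 TPM. The ranges of Jak1 and Stat4 overlapped, and that of Stat4 lay above that of Stat3. The lowest library of Stat3, at 40.4 TPM, was above the highest of Stat2, at 33.5 TPM. In Foxo1TKO libraries the medians were 192.9 TPM for Jak1, 184.0 for Stat3 and 167.1 for Stat4, whose ranges overlapped, followed by Jak2 at 25.8, Stat5a at 21.1, Stat5b at 14.4, Stat2 at 11.2, Stat6 at 9.28 and Jak3 at 5.67 TPM. Below Stat4 there was a gap that no library bridged. Neighbours among the lower members overlapped, other than Stat5a and Stat5b in Foxo1TKO and Jak2 and Stat5b in Foxo1Ctrl libraries. Stat5a was thus the eighth of the 9 members by level in control cells and the fifth without Foxo1.

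The genes on either side of the members in the pathway were taken from lists of receptor chains, ligands, inhibitors and target genes. Several genes stand in more than one list, and each list is described by its counts and its median log2 fold change beside that of all genes tested (0.01). Of all genes, 11.8% were called higher and 12.4% lower, the background for each count. Of the receptor chains that use the common gamma chain or share its cytokines, 1 of 8 was higher and 2 were lower in Foxo1TKO cells, with a median of −0.46. Il7r, the chain that binds IL-7, had 644.9 to 882.2 normalized counts in Foxo1TKO and 5837 to 11444 in Foxo1Ctrl libraries (log2 fold change −3.49), and Il4ra, the IL-4 receptor chain, was lower as well (−1.20). Il9r was called higher, but at 12.3 to 23.7 counts against 0, 2.29 and 2.91 it was near the limit of detection.

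Among gp130 and IL-12 family receptor chains, 6 of 10 were tested, none was called higher and 2 were lower (median −0.54). These were Il6ra, the chain that binds IL-6, with 5.26 to 13.5 counts against 118.9 to 373.2 (−4.53), and Il12rb2, through which IL-12 reaches Stat4, with 451.8 to 1390 counts against 2858 to 4686 (−2.15). Stat4 and Il12rb2, which serve the same cytokine, were both called lower. Il12rb1, an IL-12 receptor chain of the same list, was not called, with 119.1 to 245.9 counts against 91.49 to 144.3 (0.56). Of interferon and IL-10 family chains, 1 of 7 tested was lower and none higher (median −0.07). It was Ifngr1, the binding chain of the interferon gamma receptor, with 3865 to 4590 counts against 43490 to 53593 (−3.49). Of 13 other receptor chains 5 were tested, and Prlr, at 1.69, 0 and 0 counts in Foxo1TKO and 15.5, 21.7 and 19.4 in Foxo1Ctrl libraries, was called lower.

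Of the 23 ligands, 8 were tested, of which 2 were higher and 3 lower (median −0.39). Csf2, which encodes GM-CSF, was higher (3.29), as was Il22 (1.02), whereas Il21 (−3.61), Il2 (−2.28) and Ebi3 (−1.31), a subunit of IL-27 and IL-35, were lower. These transcripts had at most 545.5 normalized counts in any library. Il21 had 0.85, 5.26 and 0 counts in Foxo1TKO and 34.88 to 38.15 in Foxo1Ctrl libraries. Its level in Foxo1TKO libraries was thus near the limit of detection. Il2 was low in Foxo1TKO libraries too, at 5.92 to 17.2 counts.

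Of the 19 negative regulators, all of which were tested, 2 were higher and 3 lower (median 0.09). Those higher were Cish (1.18), a SOCS-family inhibitor that STAT5 induces, and Ptpn6 (1.14), the phosphatase SHP-1. Those lower were Socs3 (−5.36), the inhibitor of gp130 signaling, Socs2 (−2.58) and Ptprc (−0.58), the phosphatase CD45.

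Target genes of STAT5, STAT3, STAT4 and STAT6 were called in both directions. Not called were 5 of 12 STAT5, 3 of 8 STAT3, 4 of 8 STAT4 and 2 of 5 STAT6 targets tested. Of all genes 24.2% were called, so the share called was higher in each of these lists. The lists were chosen with earlier results of these data known, and these shares were not tested. Of 12 STAT5 targets, 3 were higher (Cish, Lta at 1.07 and Ccnd2 at 0.57) and 4 lower (Pim1 at −3.06, Socs2, Pim2 at −2.29 and Bcl2 at −1.04), with a median of −0.48, in cells in which Stat5a was higher. Of 8 STAT3 targets tested, 1 was higher (Rora at 2.53) and 4 were lower (Socs3, Il21, Pim1 and Batf at −1.25), with a median of −0.92. Of 8 STAT4 targets tested, 2 were higher (Gadd45b at 2.22 and Furin at 0.62) and 2 lower (Il12rb2 and Il18r1 at −1.72), with a median of 0.45. Of 5 STAT6 targets tested, 2 were higher (Ccr8 at 4.81 and Gfi1 at 1.22) and 1 lower (Il4ra), with a median of −0.15.

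Of the genes that the complex of Stat2 and IRF9 induces, 21 were tested. In Foxo1TKO cells 10 were lower, against 12.4% of all genes, none was higher, against 11.8%, and 11 were not called, with a median of −1.24. The lists were chosen with earlier results of these data known, and genes were left out of them in part after their values were seen. The contrast with all genes is therefore a description and not a test. Ifit1bl1 had 1123 to 1407 normalized counts against 12299 to 13546 (−3.36), Ifit3 50.4 to 133.4 against 482.5 to 811.9 (−2.90), Rtp4 288.2 to 458.9 against 1397 to 2151 (−2.19) and Mx1, an antiviral GTPase, 11.4 to 18.2 against 60.8 to 63.0 (−2.07). Stat2 itself, with a log2 fold change of −1.09, was on the same side without passing the threshold. Irf9, its partner, was chosen after its values were seen: it had 2200 to 2737 counts against 4646 to 5225 (−1.01, standard error 0.15, edgeR, adjusted p = 0.00241). The 4 B-cell markers called, Jchain and Mzb1 were lower in Foxo1TKO libraries as well, and the part of the cells they mark in this result was not tested. The NK-cell markers called went both ways, Klrd1 lower and Eomes higher.

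**Figure D5:**
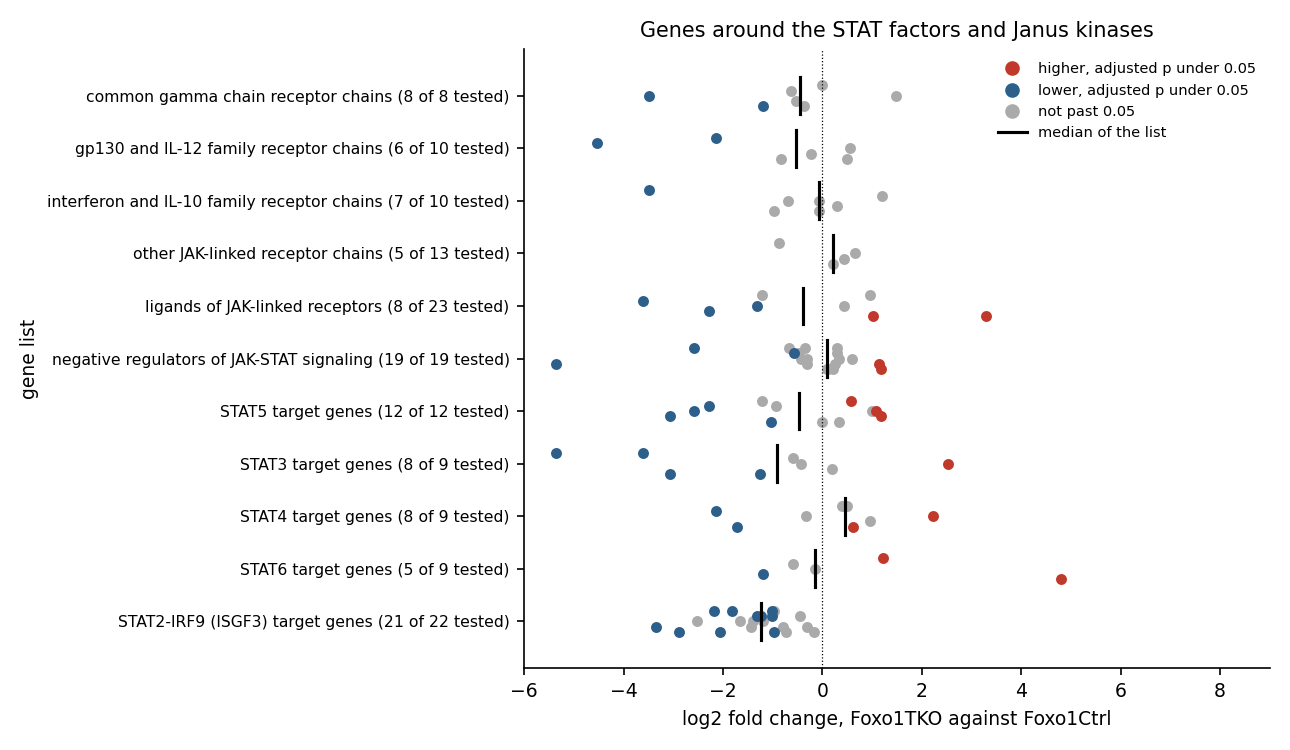
Log2 fold changes, Foxo1TKO against Foxo1Ctrl, of the tested genes of 11 lists (red, higher and blue, lower at an adjusted p under 0.05; grey, not past it), with a bar at the median of each list. The genes induced by Stat2 and IRF9 lie to the left of 0 with a median of −1.24, and the other lists spread to both sides; Il9r and Prlr are not drawn because one genotype was at or under 3 counts.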

How the data were processed

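The RNA of 3 Foxo1TKO and 3 Foxo1Ctrl cultures was analysed, grouped by the genotype in the labels. According to the processing notes, the authors aligned reads with STAR 2.7.6a to GRCm38 and counted them with RSEM 1.3.1. Expected counts were deposited without normalization and rounded here to whole numbers, and the authors' TPM and FPKM values and effective lengths were used as deposited. The authors' normalized signal was made with DESeq2 size factors and effective lengths. Trimming and strandedness are not given in the sources used here. The labels give 50000 naive T cells per culture and peripheral lymph nodes, and the methods give another cell number and add mesenteric nodes.

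Differences were tested with edgeR 4.0.16 in R 4.3.3 (TMM, glmQLFit, glmQLFTest, prior count 1) and genotype as the only term, with Benjamini-Hochberg adjustment over the 13691 genes that reached 10 counts in 3 or more libraries. DESeq2 1.42.0 and limma 3.58.1 served as alternatives, and the test was tried on simulated counts. The members and the gene lists were chosen with earlier results of these data known. Beside the members and Foxo1, up to 4 called genes with the largest change in each direction were named per list. Gene positions and GC content came from GENCODE M21 and promoters from RefSeq (GRCm38.p6). Some genes are not reported here and were left out of the lists, in part after their values were seen, and the counts and medians are of the genes that remain. Figures were drawn with matplotlib 3.10.9.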

Additional observations from a re-analysis of the deposited data

How the results depend on the processing

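Stat5a stayed past the threshold in all 19 alternative fits (log2 fold change 0.91 to 1.08, adjusted p at most 0.0181) and Stat4 in 18 of 19 (−0.72 to −0.58, adjusted p up to 0.0561 without Foxo1TKO replicate 2). Which other members were called depended on the fit, and the number called was 2 in the reported fit. It was also 2 with filterByExpr, with limma-voom, and in edgeR with upper quartile scaling or with the size factors of DESeq2, where 3272 to 3397 of all genes were called. DESeq2, no filter on low counts and the replicate block each gave 4 members, adding Stat2 (−1.08, −1.06 and −1.11) and Stat3 (1.08, 1.09 and 1.17). The authors' normalized signal with limma and effective length offsets each added Stat2 (−1.15 and −1.18). Stat6 reversed, without being called, under limma-voom (−0.025), limma on the signal (−0.06) and the replicate block (−0.029). An adjusted p under 0.01 left 1597 of 3308 calls over all genes.

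With each library left out in turn, 1 to 4 members and 1590 to 3431 genes were called. The log2 fold change ran from −1.52 to −0.87 for Stat2, 0.73 to 1.28 for Stat3, −0.71 to −0.63 for Stat4, −0.50 to −0.21 for Stat5b, −0.76 to 0.44 for Stat6, −0.55 to −0.32 for Jak1, −0.79 to −0.30 for Jak2 and −0.33 to 0.30 for Jak3. Stat6 and Jak3 reversed without Foxo1TKO replicate 1 or Foxo1Ctrl replicate 2. All genes called numbered 2135 without Foxo1TKO replicate 3, 1848 without Foxo1Ctrl replicate 1 and 2166 without Foxo1Ctrl replicate 3. Of the 18 places in the order of levels, 11 to 18 were kept. Replicate numbers were not shown to pair the libraries, since the deviations of same-numbered libraries correlated at 0.43, 0.20 and −0.11, and the replicate block called 3428 genes.

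Alternatives chosen after seeing the data changed the calls most. GC offsets gave 4 members, with Stat2 at −1.19, Jak1 at −0.49, Stat6 at −0.023 and Jak3 at −0.056, and with the replicate block as well 5 members, with Stat2 at −1.21, Stat3 at 1.08, Jak1 at −0.49, Stat6 at −0.12 and Jak3 at −0.051. Without Foxo1TKO replicate 1 and Foxo1Ctrl replicate 2 together, 8 members and 5214 genes were called, with Stat2 at −1.78, Stat3 at 0.42, Stat5b at −0.61, Stat6 at −1.10, Jak1 at −0.67 and Jak3 at −0.63, but the Foxo1TKO libraries kept then have GC coefficients below 0 and the Foxo1Ctrl libraries above 0, so genotype and the GC axis cannot be told apart in that fit. With the sign of the GC coefficient as a term, 7 members and 5677 genes were called, with Stat2 at −0.78, Stat3 at 1.55, Stat6 at 0.50, Jak2 at −0.84 and Jak3 at 0.43. That term was set from the same counts, so its p-values are too small. These last fits gave Stat6 and Jak3 opposite signs, and the cause was not tested.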
